A study of Rattus norvegicus with 6 samples.

Results

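Aminoacyl-tRNA synthetases are the enzymes that join each amino acid to its transfer RNA. The mRNAs of these enzymes were followed in rat Schwann cells, which ensheath the axons of peripheral nerves, after stimulation with soluble Neuregulin1 (NRG1), a growth factor acting through ErbB receptors. The set was a list of 36 gene symbols, 20 for cytosolic and 16 for mitochondrial enzymes (the symbols ending in 2), out of 17327 gene symbols with counts. A row was found for 34 of them, all 20 cytosolic and 14 mitochondrial enzymes, while Iars2 and Mars2 were not analysed here. Of these 34, 33 passed the filter on low counts, and Ears2 did not.

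The cells were primary cultures from sciatic nerves of adult Wistar rats. All samples shared the same background. In the paper's methods, the cells were routinely grown in medium that held recombinant NRG1β1 and forskolin (an activator of adenylyl cyclase). Confluent cells were then starved for 18 h without NRG1, in the presence of 2% FBS and 10 μM forskolin. Forskolin was still present during the stimulation. The NRG1 group (n = 3) then received 10 nM recombinant NRG1β1 for 6 h, and the mock group (n = 3) received the buffer of the ligand, PBS with BSA, for the same time. Each of 3 independent cell preparations, called here culture 1, 2 and 3 after the number in the labels, gave 1 mock and 1 NRG1 sample. The comparison asks which genes the ligand changes early when it returns after starvation, with no later time and no other dose.

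The cytosolic enzymes supply charged tRNA to the ribosomes of the cytosol, and 8 of them are bound in a multi-synthetase complex. A separate, nuclear-encoded set serves the ribosomes inside mitochondria. The glycyl and lysyl enzymes (Gars and Kars) are made in both forms from 1 gene, Eprs joins the glutamyl and the prolyl enzyme in 1 protein, and mitochondria obtain glutaminyl-tRNA through an amidotransferase rather than a synthetase. Several cytosolic synthetases are known targets of Atf4, the transcription factor of the amino acid response, and genes for protein synthesis are known targets of Myc. Mutations in several of them, Gars and Yars among them, cause inherited neuropathies of the Charcot-Marie-Tooth type.

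The counts on genes ranged from 6821600 to 15475000 per sample, and 3 counts, taken as the smallest level that could be shown, were between 0.194 and 0.440 CPM (counts scaled to a common library size). Schwann cell markers were present in all samples, although their summed level was 4820 to 6162 CPM in culture 1 and 12600 to 16139 CPM in the others. The fibroblast markers Dcn, Lum and Thy1 were found in culture 1 (Thy1 at 1268 CPM in mock and 1143 CPM in NRG1) and were at 0 in both other cultures. The collagen genes Col1a1 and Col3a1 of the same list were present in all 3 cultures, Col3a1 at 22402 and 23218 CPM in culture 1 and at 170 to 838 CPM in the others. Of the 8 fibroblast markers, the summed level was 53425 and 57718 CPM in the mock and NRG1 sample of culture 1 and 13693 to 22332 CPM in the other 4 samples. Ptprc of macrophages and Pecam1, Cdh5, Emcn and Cldn5 of endothelial cells were at 0 throughout. Other genes of these lists were present at low levels, Tek at 5.87 to 14.8 CPM and Cd68 at 2.00 to 3.68 CPM in all samples, and Cd14 at 7.75 and 5.33 CPM in culture 1. With treatment, 4 of the 8 Schwann cell markers fell (S100b, Cdh19 and Mbp among them). Tek had a log2 fold change of -0.62 in edgeR (adjusted p = 0.028) and was lower in all 3 cultures. Col3a1 had one of -0.98 (adjusted p = 0.012), with log2 ratios of 0.05, -1.59 and -1.38 in cultures 1, 2 and 3, and the summed fibroblast list had NRG1 to mock ratios of 1.08, 0.61 and 0.99. The part of these shifts in the results below was not tested. The calls of the synthetases and of the related lists were therefore also computed without culture 1. Summed levels, overlaps, comparisons by amino acid, enzyme classes and motif counts were not.

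After NRG1, 9 of the 33 synthetase mRNAs tested rose and none fell, at an adjusted p of at most 0.01 in edgeR's quasi-likelihood test with the culture as a block. Over all 9740 genes tested, 615 (6.31%) rose and 537 (5.51%) fell. All 9 were cytosolic enzymes, 9 of 20, against 0 of the 13 mitochondrial enzymes tested. At an unadjusted p under 0.05, 2 mitochondrial enzymes were higher and 0 lower, where 17.0% of all genes were higher, and DESeq2 also called 0 of the 13. Median log2 fold changes were 0.49 for the cytosolic enzymes, 0.21 for the mitochondrial enzymes and -0.03 for all genes tested. The 9 rises lay between 1.40-fold and 2.15-fold, and only Vars also exceeded a log2 fold change of 1, the added limit of the study's methods, which 152 genes (1.56%) passed upwards. In bulk RNA, a change per cell and a change in the share of a cell type cannot be told apart.

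**Figure D1:**
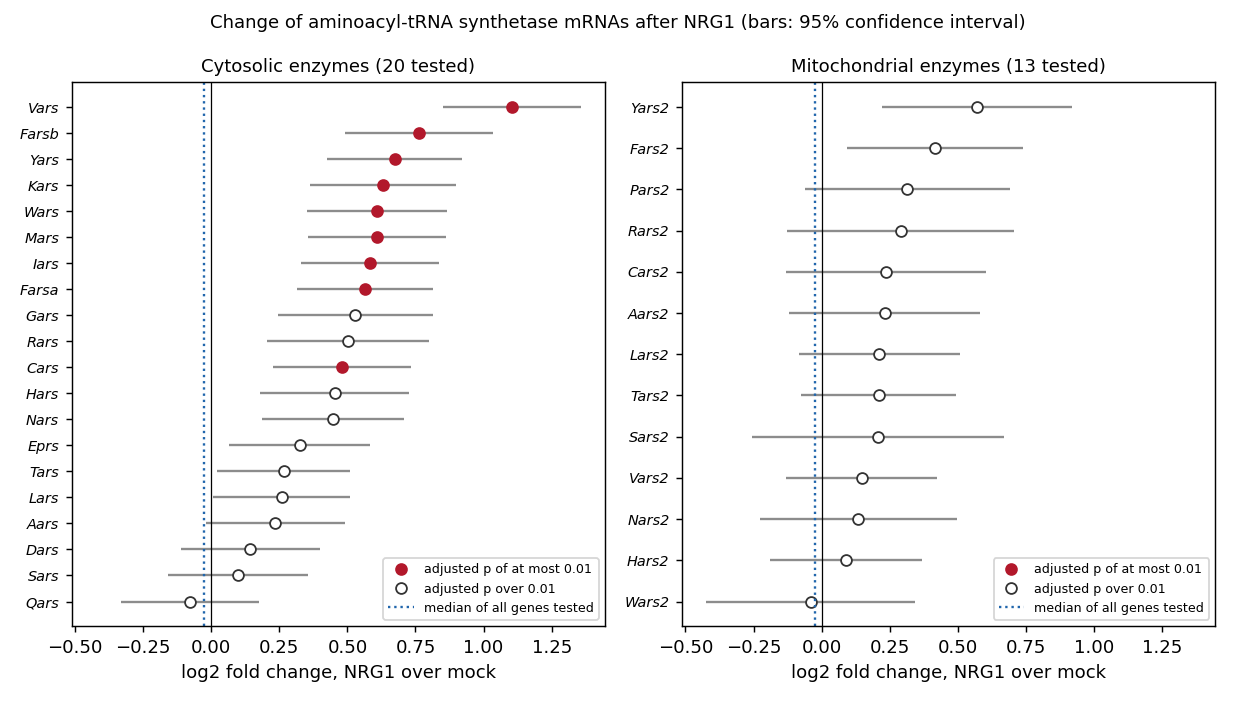
Log2 fold change (NRG1 over mock) of the 33 synthetase mRNAs tested, with 95% confidence intervals from edgeR's fit over 3 mock and 3 NRG1 samples. Filled points mark an adjusted p of at most 0.01; they appear in the cytosolic panel only, and the dotted line is the median of all genes tested (-0.03).

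The direction was shared beyond the 9 genes that passed. Of the 33 mRNAs, 31 had a positive log2 fold change, as had 4596 of all 9740 genes tested. In each of the 3 cultures, 26 of the 33 were higher in NRG1 than in mock, as were 25.9% of all genes tested. The lowest NRG1 sample lay above the highest mock sample for 16 of the 33, against 10.2% of all genes tested. At an adjusted p of at most 0.05, 14 of the 33 were higher in NRG1 (13 cytosolic and 1 mitochondrial), against 11.5% of all genes. The summed level of the 20 cytosolic mRNAs averaged 3280 ± 76.2 CPM in the mock group and 4305 ± 222 CPM in the NRG1 group (mean ± SD, n = 3 each). For the 14 mitochondrial mRNAs the corresponding values were 240 ± 2.52 and 277 ± 9.12 CPM.

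These calls rest on the pairing of samples within a culture. Without the block, no gene of the 9740 passed in either direction, and the smallest adjusted p among the synthetases was 0.16, although 13 of them had an unadjusted p under 0.05. Without culture 1, which alone held Dcn, Lum and Thy1, 9 of the 33 again passed, beside 5.94% of all genes tested. Of these, 7 were shared with the full comparison, Gars and Rars were added, and Farsa and Cars were lost. Without culture 2, 8 passed, all of them among the 9, beside 5.07% of all genes. Without culture 3, the deepest pair, 4 passed, namely Vars, Farsb, Kars and Yars, beside 4.02% of all genes, and these 4 were called in every one of these comparisons.

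Vars, the valyl-tRNA synthetase, changed most. SE stands for the standard error here and below. Its level was 89.7, 111 and 128 CPM in mock cultures 1, 2 and 3, and 188, 256 and 265 CPM in the NRG1 samples of the same cultures. Every NRG1 sample lay above every mock sample. The fold change was 2.15 (95% confidence interval 1.81 to 2.56), with a log2 fold change of 1.10 (± 0.12 SE, adjusted p = 2.5e-05), and it ranked 64 among the 9740 genes tested by p. Its log2 ratios within cultures 1, 2 and 3 were 1.07, 1.20 and 1.04, so the response was of like size in culture 1, the one with Dcn, Lum and Thy1, and in the others.

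Farsb and Farsa encode the β and α chains of the cytosolic phenylalanyl enzyme, which works as a tetramer of both. Farsb was counted at 70.1, 47.4 and 53.1 CPM in mock and at 109, 97.9 and 81.6 CPM in NRG1 samples, without overlap between the groups. Farsa stood at 58.5, 75.9 and 88.5 CPM in mock and at 86.5, 120 and 123 CPM in NRG1 samples, so that NRG1 culture 1 lay below mock culture 3 although each culture rose. The log2 fold changes were 0.76 (± 0.13 SE, adjusted p = 0.00077) for Farsb and 0.56 (± 0.12 SE, adjusted p = 0.0033) for Farsa. Both chains of the enzyme thus moved in the same direction, and the culture with the highest Farsb had the lowest Farsa.

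Yars, the tyrosyl enzyme, was at 75.6, 85.2 and 69.8 CPM in mock and at 117, 145 and 108 CPM in NRG1 samples. Kars, the lysyl enzyme of both compartments, was at 138, 149 and 180 CPM in mock and at 192, 274 and 261 CPM in NRG1 samples. Neither gene showed an overlap between the groups. Their log2 fold changes were 0.67 (± 0.12 SE, adjusted p = 0.00094) and 0.63 (± 0.13 SE, adjusted p = 0.0026).

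The tryptophanyl enzyme Wars and the methionyl enzyme Mars varied little among the mock samples. Wars was counted at 123, 118 and 128 CPM in mock against 165, 198 and 202 CPM in NRG1 samples. Mars was counted at 131, 122 and 130 CPM in mock against 181, 199 and 204 CPM. Both changed by 0.61 on the log2 scale (± 0.12 SE), with adjusted p-values of 0.0025 and 0.0022, and in both culture 1 responded least.

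The isoleucyl enzyme Iars and the cysteinyl enzyme Cars differed widely between cultures. Iars was at 88.3, 75.9 and 55.9 CPM in mock and at 129, 105 and 92.9 CPM in NRG1 samples, with a fitted log2 change of 0.58 (± 0.12 SE, adjusted p = 0.0029). Cars was at 82.0, 62.7 and 49.8 CPM in mock and at 107, 96.4 and 67.5 CPM in NRG1 samples, with a fitted log2 change of 0.48 (± 0.12 SE, adjusted p = 0.0094). In both, culture 1 was the highest and culture 3 the lowest under either condition, and for Cars the groups overlapped. Cars was the weakest of the 9 calls, since its adjusted p was between 0.022 and 0.043 when any culture was left out and 0.011 in DESeq2.

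**Figure D2:**
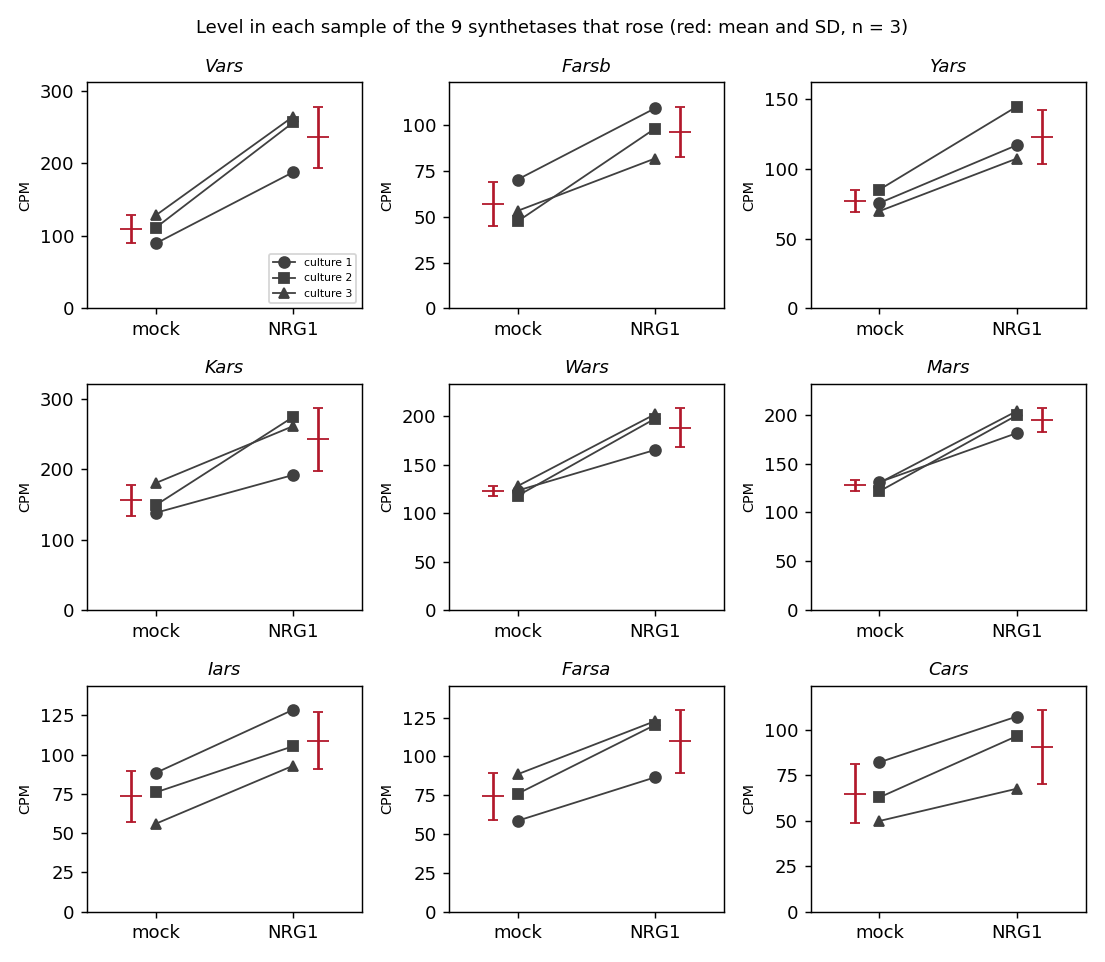
Level in CPM (linear axes from 0) of the 9 synthetase mRNAs that rose, with a line for each culture joining its mock and NRG1 sample, and the group mean and SD (n = 3) in red. Every line goes up; the groups are separate for 7 genes and overlap for Farsa and Cars.

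Of the 11 cytosolic enzymes that did not pass, 4 lay close to the threshold. Gars, the glycyl enzyme, had an adjusted p of 0.0104 and a log2 fold change of 0.53 (± 0.13 SE). Its level was 229 CPM in mock culture 1 but 124 and 129 CPM in mock cultures 2 and 3, against 276, 224 and 180 CPM in NRG1 samples, and without culture 1 it passed (log2 fold change 0.67, adjusted p = 0.0024). The asparaginyl (Nars), arginyl (Rars) and histidyl (Hars) enzymes had log2 fold changes of 0.45, 0.50 and 0.45 with adjusted p-values of 0.016, 0.018 and 0.020. In all 3 the lowest NRG1 sample lay above the highest mock sample. DESeq2 called 10 of the synthetases, with Gars and Nars in place of Cars, and 5.80% of all genes higher.

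The remaining 7 had smaller values. Eprs, the glutamyl-prolyl enzyme, had a log2 fold change of 0.32 (adjusted p = 0.066), and its samples stood at 494, 505 and 391 CPM in mock and 600, 617 and 518 CPM in NRG1, again without overlap. The threonyl (Tars), leucyl (Lars) and alanyl (Aars) enzymes had log2 fold changes of 0.27, 0.26 and 0.24, with adjusted p-values between 0.11 and 0.17. The aspartyl enzyme Dars and the seryl enzyme Sars came to 0.14 and 0.10, with 95% confidence intervals from -0.11 to 0.40 and from -0.16 to 0.35. The glutaminyl enzyme Qars was the single cytosolic member with a negative value, -0.08 (95% confidence interval -0.33 to 0.18, adjusted p = 0.68). It was at 249, 293 and 276 CPM in mock and at 256, 257 and 261 CPM in NRG1 samples. Its interval does not reach the log2 fold change of any of the 9 enzymes that rose.

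The 13 mitochondrial enzymes tested had log2 fold changes from -0.04 to 0.57, of which 12 were positive. Yars2, the mitochondrial tyrosyl enzyme, had the largest value, 0.57 (± 0.16 SE, adjusted p = 0.022), with 10.0, 13.2 and 11.4 CPM in mock and 14.8, 20.1 and 16.6 CPM in NRG1 samples. Fars2, the phenylalanyl enzyme, followed with 0.42 (± 0.15 SE, adjusted p = 0.061) and was at 16.3, 16.6 and 17.3 CPM in mock and 18.9, 24.5 and 23.8 CPM in NRG1 samples. For both genes and for Lars2 (0.21, adjusted p = 0.30) the groups did not overlap.

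Pars2 (prolyl), Rars2 (arginyl), Cars2 (cysteinyl) and Aars2 (alanyl) had log2 fold changes of 0.31, 0.29, 0.24 and 0.23. Tars2 (threonyl), Sars2 (seryl), Vars2 (valyl), Nars2 (asparaginyl) and Hars2 (histidyl) followed with 0.21, 0.21, 0.15, 0.14 and 0.09, and Wars2 (tryptophanyl) with -0.04. The adjusted p of these 10 and of Lars2 was at least 0.216. Sars2 and Rars2 differed most between cultures, with log2 ratios of 0.81, -0.25 and 0.16 for Sars2 and of -0.16, 0.25 and 0.75 for Rars2 in cultures 1, 2 and 3. Ears2, the glutamyl enzyme, had between 1 and 6 counts per sample, too few for a comparison.

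The mitochondrial enzymes were measured with less precision. The median over genes of the mean count per sample, not corrected for gene length, was 1602 for the cytosolic and 138 for the mitochondrial enzymes, and the median standard error of the log2 fold change was 0.12 and 0.16. For 10 of the 13 mitochondrial enzymes the 95% confidence interval reached the cytosolic median of 0.49, so that a change of that size was not detectable as absent at this depth. All counts were also thinned to 10% in a single random draw, an alternative chosen after the data had been seen. The cytosolic enzymes then had a median of 165 counts and a median standard error of 0.16. Vars, Farsa, Wars and Yars were still called in this draw, 4 of 20, and the cytosolic median log2 fold change was 0.44. Farsb and Kars, which were called with any culture left out, were not called in it. Other draws, which could keep other genes, were not made. In the thinned counts 3.96% of all genes tested were called higher, and 0 of the 11 mitochondrial enzymes that still passed the filter, whose median standard error was then 0.33.

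For 12 amino acids, both the cytosolic and the mitochondrial enzyme were tested. With the 2 phenylalanyl chains each set against Fars2 this gave 13 comparisons, and the cytosolic value was the larger in 12, with a median difference in log2 fold change of 0.21. It was larger within each of the 3 cultures in 7 of the 13, and smaller within all 3 in none. The widest gap was that of valine, where Vars exceeded Vars2 by 0.81, 1.18 and 0.88 on the log2 scale in cultures 1, 2 and 3. Tryptophan followed, with 0.22, 0.75 and 0.93. Tyrosine gave a small gap, because Yars and Yars2 were both among the larger values of their class, and for serine the order was reversed, with 0.10 for Sars and 0.21 for Sars2. An exact two-sided paired permutation test on 3 cultures cannot go below 0.25, so no p is given for these differences.

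**Figure D3:**
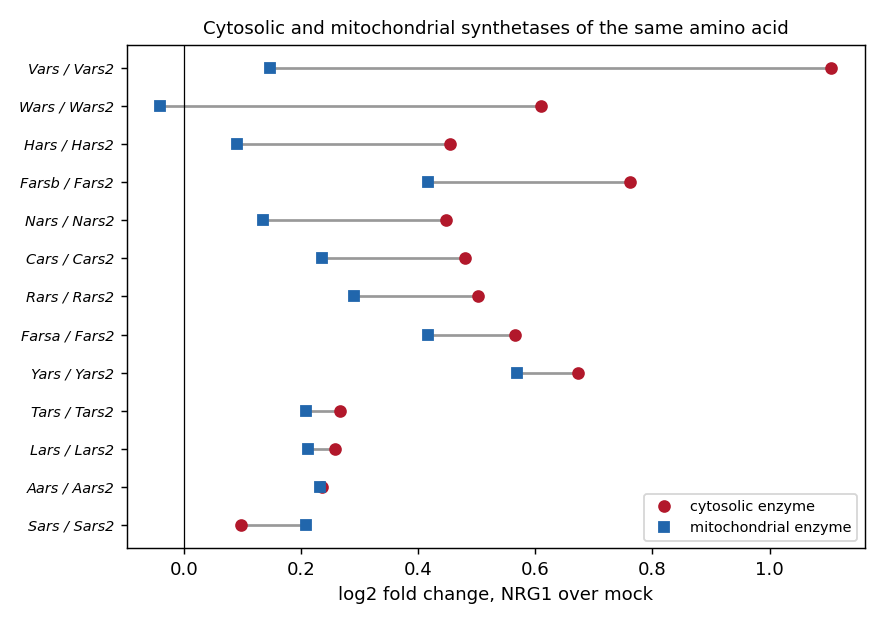
Log2 fold change (NRG1 over mock) of the cytosolic (circles) and mitochondrial (squares) enzyme of the same amino acid, joined by a line, for 13 comparisons over 12 amino acids. The circle lies to the right in 12 of them, and the longest line belongs to Vars and Vars2.

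The response differed in size between cultures. The median log2 ratio of the cytosolic enzymes was 0.32, 0.64 and 0.43 in cultures 1, 2 and 3, and that of the mitochondrial enzymes was 0.21, 0.25 and 0.19. Over all genes tested, the median was -0.03, -0.03 and -0.01. Among the cytosolic enzymes, 19, 19 and 18 of 20 were positive in cultures 1, 2 and 3, and among the mitochondrial enzymes 11, 11 and 12 of 13. Of all 9740 genes tested, 4496, 4636 and 4777 were positive in the same cultures. The gap between the classes was therefore present in each culture and smallest in culture 1, the one with Dcn, Lum and Thy1. Culture 2 had the highest cytosolic median and also the lowest NRG1 to mock ratio of the summed fibroblast list (0.61). The part of other cells in this was not tested.

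**Figure D4:**
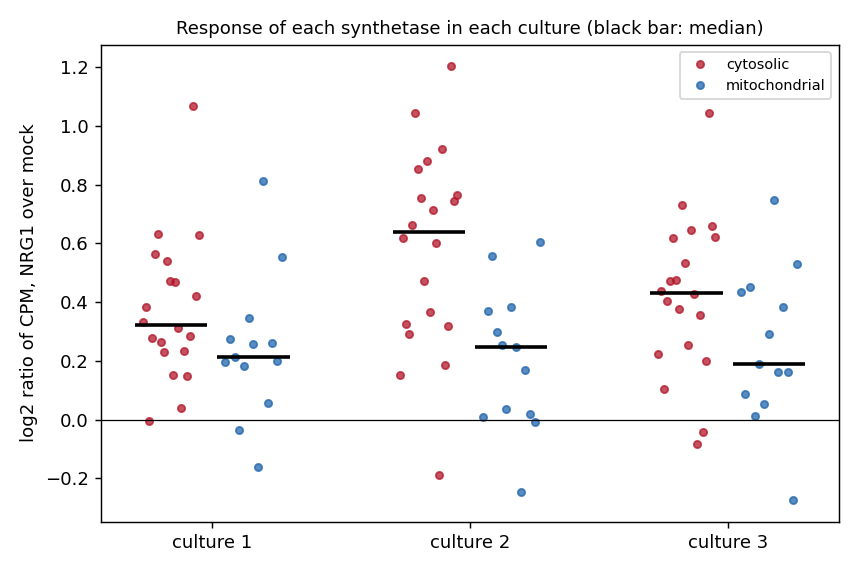
Log2 ratio of CPM (NRG1 over mock) within each culture, for the 20 cytosolic and 13 mitochondrial synthetase mRNAs tested (1 point each); black bars are medians. The cytosolic median exceeds the mitochondrial one in each culture, 0.32 against 0.21, 0.64 against 0.25 and 0.43 against 0.19.

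The cytosolic enzymes were then compared by known properties, beside the 6.31% of all genes tested that rose. Of the 8 enzymes of the multi-synthetase complex, 3 rose (Iars, Kars and Mars), with a median log2 fold change of 0.41. The complex also holds 3 scaffold proteins with no synthetase activity, of which 2 rose. Aimp2 went from 28.9, 44.7 and 50.4 CPM in mock to 52.1, 85.5 and 78.9 CPM in NRG1 samples (log2 fold change 0.81, standard error 0.13, adjusted p = 0.00045). Eef1e1, also called Aimp3, went from 21.1, 18.8 and 17.1 to 36.7, 47.1 and 24.2 CPM (log2 fold change 0.86, standard error 0.16, adjusted p = 0.0019). The third scaffold gene, Aimp1, had a log2 fold change of 0.55 (adjusted p = 0.018), with log2 ratios of 0.22, 1.03 and 0.38, highest in culture 2, and it was called without culture 1 (0.70, adjusted p = 0.0017). All 3 scaffold genes had NRG1 samples above every mock sample.

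Synthetases fall into classes I and II by the fold of their catalytic domain, a grouping made here after the values were seen. Of the 9 cytosolic class I enzymes 6 rose (Vars, Yars, Wars, Mars, Iars and Cars), with a median log2 fold change of 0.58. Of the 10 class II enzymes 3 rose (Farsb, Farsa and Kars), with a median of 0.45. By regulation, 6 of the 13 enzymes known as Atf4 targets rose (median 0.48), as did 3 of the 7 others (median 0.50), so these shares were close. Atf4 mRNA itself was at 591, 317 and 309 CPM in mock and 554, 386 and 311 CPM in NRG1 samples (log2 fold change 0.07, 95% confidence interval -0.20 to 0.34, adjusted p = 0.74). Myc rose from 36.9, 45.6 and 59.3 CPM to 75.9, 63.8 and 92.5 CPM (log2 fold change 0.72, standard error 0.13, adjusted p = 0.0017), a call lost without culture 1 (0.57, adjusted p = 0.014).

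The genes around tRNA charging gave a mixed picture. Apart from the scaffold genes, none of the 11 accessory genes tested passed, among them the mitochondrial amidotransferase subunits Qrsl1 (0.21) and Gatc (0.05), the formyltransferase Mtfmt (-0.02) of mitochondrial initiator tRNA and the threonyl-enzyme paralog Tarsl2 (0.31). The log2 fold changes of Ptrh2, Aarsd1, Sepsecs, Dtd1, Prorsd1, Dtd2 and Pstk were 0.32, 0.27, 0.07, 0.03, -0.05, -0.30 and -0.35. Over all genes tested, 6.31% rose and 5.51% fell. Of 38 genes tested on a list for tRNA modification, 8 (21.1%) rose and none fell, with a median log2 fold change of 0.26. The list also held Tgs1, a methyltransferase of RNA caps, which did not pass (0.17). The 4 with the smallest adjusted p were Trmt61a, the catalytic subunit of a tRNA adenosine methyltransferase (1.17, adjusted p = 0.00031), the cytosine methyltransferase Nsun2 (0.77, adjusted p = 0.0013), Qtrt1, which inserts queuine (0.93, adjusted p = 0.0016), and the pseudouridine synthase Pus1 (0.73, adjusted p = 0.0017). Without culture 1, and likewise without culture 2, 5 genes of this list were called. Of 22 genes of tRNA processing and export, 2 rose (9.09%) and 1 fell (4.55%), near the shares of all genes. Those that rose were Elac2, which trims the 3′ end of precursor tRNAs (0.73, adjusted p = 0.0012), and the exporter Xpot (0.51, adjusted p = 0.0063). Elac1, a paralog of Elac2, fell by 1.19 on the log2 scale (adjusted p = 0.0068), a call lost without culture 2 or 3, and DESeq2 called no gene of this list lower.

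RNA polymerase III transcribes the tRNA genes. Of 22 genes for its subunits and factors, 2 rose (9.09%) and 1 fell (4.55%), near the 6.31% and 5.51% of all genes tested. Polr3b had a log2 fold change of 0.59 (adjusted p = 0.0050) and Polr1c of 0.61 (adjusted p = 0.0053), while Polr3gl, which encodes an alternative subunit, fell by 1.07 (adjusted p = 0.0013). Polr1c is shared with RNA polymerase I. With any 1 culture left out, 1 gene of the list was called higher, and none was called lower without culture 3. Of 14 amino acid transporter genes tested, 3 rose (21.4%) and 1 fell (7.14%). Slc1a5 (0.99, adjusted p = 0.0014), Slc7a5 (0.68, adjusted p = 0.0020) and Slc7a1 (0.63, adjusted p = 0.0046) rose, and Slc43a2 fell by 0.99 (adjusted p = 0.0011). Slc1a5 carries glutamine and other neutral amino acids, Slc7a1 cationic ones, and Slc7a5 and Slc43a2 large neutral ones. Of 19 other known Atf4 targets, 3 rose (15.8%) and 2 fell (10.5%), with a median of 0.00. Shmt2, of mitochondrial serine metabolism (1.03, adjusted p = 5.4e-05), Slc7a5 and Xpot rose, while Ddit4, an inhibitor of mTORC1 (-0.69, adjusted p = 0.0034), and Atf3 (-3.03, adjusted p = 6.1e-08) fell. Without culture 1, 1 gene of this list was called higher, and without culture 2 or 3, 1 was called lower. The synthetases that are Atf4 targets and these other targets therefore had medians of 0.48 and 0.00. These medians varied with the cultures used. They were 0.53 and -0.01 without culture 1, 0.37 and 0.19 without culture 2, and 0.52 and 0.14 without culture 3.

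**Figure D5:**
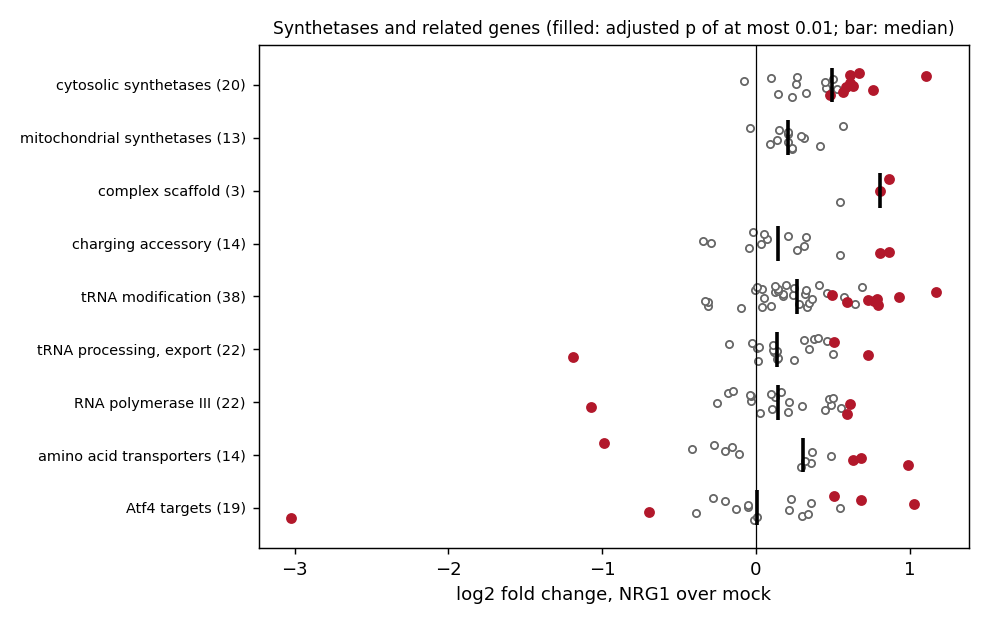
Log2 fold change (NRG1 over mock) of the synthetases and of related gene lists (number tested in brackets, 1 point per gene in each list). Some genes are on more than 1 list. The 3 scaffold genes are also charging accessory genes. Xpot and some of the amino acid transporters, such as Slc7a5, are also Atf4 targets. Filled points have an adjusted p of at most 0.01 and bars are medians; the cytosolic synthetases (0.49) lie to the right of the other Atf4 targets (0.00), and the far left point is Atf3.

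Promoter sequences were taken from RefSeq (build GRCr8, windows of 300 bases from 250 before to 50 after the gene start, 1 per gene), while the counts were made on rn5. Windows matched 33 of the 36 symbols, 17 cytosolic and 16 mitochondrial. They were searched on both strands for CACGTG, the E-box read by Myc and other factors, and for TGATGNAA, the core of the amino acid response element read by Atf4 with C/EBP factors. The second was present in 7 of 17 cytosolic (41.2%) and 0 of 16 mitochondrial windows, and in 3.98% of all 33469 windows. No matches of the 2 motifs overlapped in these 33 windows. The response element was found for Aars, Cars, Iars, Mars, Nars, Tars and Yars. The E-box was present in 5 of 17 cytosolic windows (29.4%, those of Aars, Farsb, Iars, Tars and Vars), in 1 of 16 mitochondrial windows (6.25%, that of Ears2) and in 6.42% of all windows. Among the 9 enzymes that rose, 4 had the response element and 3 the E-box, against 3 and 2 of the 8 other cytosolic windows. A match describes these letters only and is no measure of binding.

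The stretches from 110 bases before to 20 bases after the start are shown for the enzyme with the largest rise (Vars), for the one of the 9 that holds both motifs (Iars), for one with the response element alone (Mars) and for the mitochondrial partner of the first (Vars2), which holds neither. Capitals mark the motif matches, and the response element is read on the opposite strand in Iars and Mars. The stretches lie at chr20:3824932-3825061 (minus strand), chr17:15193633-15193762 (minus strand), chr7:65023734-65023863 (minus strand) and chr20:3081798-3081927 (plus strand) of GRCr8, in this order.
Vars: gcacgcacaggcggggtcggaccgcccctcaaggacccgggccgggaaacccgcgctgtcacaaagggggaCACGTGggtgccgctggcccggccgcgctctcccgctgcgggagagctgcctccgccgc
Iars: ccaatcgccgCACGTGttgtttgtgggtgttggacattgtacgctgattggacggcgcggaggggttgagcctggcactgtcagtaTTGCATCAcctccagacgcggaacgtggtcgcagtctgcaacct
Mars: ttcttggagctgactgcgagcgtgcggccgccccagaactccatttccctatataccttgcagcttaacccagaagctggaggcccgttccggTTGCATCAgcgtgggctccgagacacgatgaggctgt
Vars2: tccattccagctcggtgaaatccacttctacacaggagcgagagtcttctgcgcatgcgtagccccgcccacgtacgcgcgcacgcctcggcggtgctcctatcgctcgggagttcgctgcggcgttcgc
The match of Iars began 24 bases and that of Mars 17 bases before the start, and the E-box of Vars 39 bases before it.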

How the data were processed

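RNA was measured in 3 mock and 3 NRG1 samples of primary Schwann cells. Per the labels and the paper's methods, poly(A) libraries were mapped by the authors to rn5 with TopHat 2.0.10, and raw counts per RefSeq gene were made with htseq and deposited without normalization. The counter's summary lines (50.1% to 53.0% of the alignments) were kept out of library sizes and tests. Whether counting used strand is not given in the sources used here.

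Genes were filtered with filterByExpr (minimum count 10), which left 9740 and removed 7587, and libraries were scaled by TMM. The condition was tested with edgeR 4.0.16 in R 4.3.3 (quasi-likelihood, with a culture term because the methods describe paired samples), with Benjamini-Hochberg adjustment over all genes tested. Standard errors are the log2 fold change over the square root of F. CPM use TMM-scaled libraries, and log2 ratios within a culture use a prior count of 2. Across genes, same-numbered samples deviated from their group means together (r = 0.91, 0.67 and 0.81), and the labels describe independent experiments. No 2 samples agreed within sampling noise.

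Alternatives were DESeq2 1.42.0 with the block, no block, RLE, no filter, robust empirical Bayes, an adjusted p of 0.05 and each culture left out, and thinned counts were added later. The members and lists were chosen with earlier results of these data known. Named were all members, the accessory genes, Atf4, Myc, Tgs1 and up to 4 genes of each other list with the smallest adjusted p. Xpot and Slc7a5 are named under both lists that hold them. Scripts were tested on simulated data. Gene names follow the files, and levels were not compared between genes, since no transcript lengths were used.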

Additional observations from a re-analysis of the deposited data

How the results depend on the processing

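The calls depended most on the pairing. In the fit with no replicate block, 0 genes of the whole table, 0 synthetases and 0 genes of every related list passed in either direction, while the median log2 fold changes were 0.49 for cytosolic and 0.21 for mitochondrial enzymes. The common biological coefficient of variation was 0.12 with and 0.37 without the block. Leaving out each culture in turn gave 4 to 9 synthetases higher in NRG1, all cytosolic, and 408 to 590 genes higher and 253 to 601 lower in the whole table. In the same comparisons the higher calls ranged from 5 to 6 for tRNA modification, 1 to 3 for tRNA processing and export, 1 to 1 for RNA polymerase III and 1 to 3 for Atf4 targets. The lower calls ranged from 0 to 1 for tRNA processing and export, 0 to 1 for RNA polymerase III and 1 to 2 for Atf4 targets. At an adjusted p of at most 0.05, 1124 genes (11.5%) were higher and 1136 lower. Higher were 14 synthetases (1 mitochondrial), 13 tRNA modification genes, 5 of processing and export and 6 of RNA polymerase III, and 2 transporters were lower. Without the low-count filter, 848 of the 13129 genes tested were higher and 857 lower, and 13 synthetases were higher. DESeq2 called 0 genes of processing and export lower and gave a mitochondrial median of 0.24. Counts thinned to 10% in a single random draw left 4 cytosolic calls. RLE normalization and robust empirical Bayes each gave 10 synthetases, all 9 among them, beside 665 and 635 of 9740 genes higher. No result reversed. Apart from the block and the smaller number of samples or counts, the causes were not tested. Separate cultures are the replicates, so 3 pairs and, for the mitochondrial enzymes, low counts limit the precision.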

Other observations

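Hars and Hars2, the cytosolic and mitochondrial histidyl enzymes, are read in opposite directions from starts 144 bases apart in RefSeq's GRCr8 annotation. Their log2 fold changes were 0.45 and 0.09, and Hars exceeded Hars2 by 0.27, 0.46 and 0.36 in cultures 1, 2 and 3. Neither passed the test, and the difference has no test here.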
